A study of Mus musculus with 9 samples.

Results

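The glucocorticoid receptor (GR) occupied 245 places near the ends of protein-coding genes in granulosa cells before the ovulatory stimulus that were not called 6 h after it. They were found by merging the peaks of 4 GR lists on chromosomes 1 to 19 and X, where an overlap of 1 bp or more joined peaks into a locus. A locus was kept if it was called in both GR libraries of 0 h and in neither of 6 h, and if it lay within 1 kb of the first or last base of a protein-coding gene of mm10. The 4 lists gave 18570 loci, of which 771 (4.15%) met the condition on the libraries, and 8736 loci lay near a gene end, of which 245 (2.80%) met it. These 245 are called 0 h-only end loci below. Since they were chosen by presence and absence in the 4 lists, their peak values at 0 h and their lack of a peak at 6 h are given as a description and not tested.

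GR binding was mapped by chromatin immunoprecipitation and sequencing (ChIP-seq) in granulosa cells, the somatic cells of the follicle that nurse the oocyte. The cells came from wildtype CBA x C57BL/6 F1 mice aged 21 days, and all of them were given eCG, or equine chorionic gonadotropin (5 IU, PMSG in the sample titles), a hormone that drives follicle growth. Mice of the 0 h group were killed 44 h after eCG, and those of the 6 h group were given 5 IU of human chorionic gonadotropin (hCG), a stand-in for the surge of luteinising hormone, and killed 6 h later. Each time has 2 GR libraries, made with the antibody sc-8992, and acetylated lysine 27 of histone H3 (H3K27ac) was mapped in 1 library of 0 h with an antibody of Active Motif. Of the 9 samples of the series, 4 were not analysed here. No 6 h library without hCG is among the files, so the effect of hCG cannot be told apart from that of later time after eCG. Granulosa cells were collected by puncturing ovaries with no sort, and the labels number the replicates without saying if each is its own pool of mice.

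GR is a nuclear receptor that moves into the nucleus when bound by a glucocorticoid such as corticosterone, and it binds DNA directly at palindromic response elements or is held at chromatin by other factors. Most of its sites in a given cell type lie in chromatin that is already open, and H3K27ac marks the active promoters and enhancers among them. In the ovary, granulosa cells of a growing follicle divide and make inhibins, activins and estrogen under follicle-stimulating hormone (FSH). After the surge of luteinising hormone they stop dividing, loosen the follicle and turn to making progesterone.

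The sequences below are promoters that the 0 h-only end loci overlap, as examples of the DNA in which the receptor was mapped. They are the 250 bases before the annotated start, from RefSeq on GRCm38.p6 (the same coordinates as mm10), written 5′ to 3′ along the gene. Pmpcb, Pdzd8, Zfp202, Farp2 and Zfp770 are the first genes, by the rank of their loci, whose locus overlaps these bases, leaving out loci that start behind them. Inhbb and Mcm5 were chosen after their values were seen, as a hormone subunit and a replication factor. Capitals mark AGAACA (the GR hexamer), AGGTCA (the hexamer of many other nuclear receptors), TGACG (the core of the cyclic AMP response element) and GGGCGG (the GC box bound by Sp1) on either strand.
Pmpcb, chr5:21736910-21737159, plus strand: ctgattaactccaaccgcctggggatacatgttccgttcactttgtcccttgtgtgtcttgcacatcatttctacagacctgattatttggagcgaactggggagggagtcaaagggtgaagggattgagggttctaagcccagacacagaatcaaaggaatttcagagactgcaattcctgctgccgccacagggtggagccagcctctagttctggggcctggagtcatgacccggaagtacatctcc
Pdzd8, chr19:59345781-59346030, minus strand: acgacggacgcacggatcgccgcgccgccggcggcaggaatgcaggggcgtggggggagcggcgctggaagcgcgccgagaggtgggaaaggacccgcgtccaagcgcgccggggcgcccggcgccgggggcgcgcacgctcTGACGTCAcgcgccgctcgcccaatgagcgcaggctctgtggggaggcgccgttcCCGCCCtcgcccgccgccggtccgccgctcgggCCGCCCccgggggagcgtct
Zfp202, chr9:40192066-40192315, plus strand: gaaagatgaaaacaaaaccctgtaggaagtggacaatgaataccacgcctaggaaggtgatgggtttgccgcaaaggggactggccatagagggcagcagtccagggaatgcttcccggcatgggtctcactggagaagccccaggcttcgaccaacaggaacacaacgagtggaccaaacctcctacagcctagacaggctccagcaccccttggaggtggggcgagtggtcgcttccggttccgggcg
Farp2, chr1:93511854-93512103, plus strand: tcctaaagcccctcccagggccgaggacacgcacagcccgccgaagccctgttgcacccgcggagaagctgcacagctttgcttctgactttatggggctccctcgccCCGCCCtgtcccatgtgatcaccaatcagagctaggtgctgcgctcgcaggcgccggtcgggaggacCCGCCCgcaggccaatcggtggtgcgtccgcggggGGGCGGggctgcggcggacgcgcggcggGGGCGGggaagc
Zfp770, chr2:114201433-114201682, minus strand: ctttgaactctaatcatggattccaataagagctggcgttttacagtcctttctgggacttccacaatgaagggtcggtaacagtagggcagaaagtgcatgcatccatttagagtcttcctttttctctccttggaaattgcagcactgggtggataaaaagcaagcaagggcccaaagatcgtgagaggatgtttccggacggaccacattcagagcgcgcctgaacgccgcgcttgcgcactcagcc
Inhbb, chr1:119422249-119422498, minus strand: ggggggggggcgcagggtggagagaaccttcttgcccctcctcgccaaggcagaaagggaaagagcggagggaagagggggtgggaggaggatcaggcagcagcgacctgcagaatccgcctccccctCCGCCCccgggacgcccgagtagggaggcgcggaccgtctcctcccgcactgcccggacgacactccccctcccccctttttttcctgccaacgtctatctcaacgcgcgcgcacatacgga
Mcm5, chr8:75109259-75109508, plus strand: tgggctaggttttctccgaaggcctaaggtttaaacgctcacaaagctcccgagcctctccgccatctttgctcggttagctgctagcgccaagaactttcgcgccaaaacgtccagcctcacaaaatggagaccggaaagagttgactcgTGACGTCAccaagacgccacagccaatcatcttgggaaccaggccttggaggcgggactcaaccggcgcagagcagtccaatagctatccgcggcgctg
None of these 7 promoters holds AGAACA or AGGTCA in the bases shown. They are examples only, and the promoter of Mcm2, not shown, holds 1 AGGTCA. Shares over all promoters at these loci are given below. The locus covers all 250 bases at Inhbb and Mcm5, 193 at Pdzd8, 177 at Farp2, 119 at Zfp202, 106 at Pmpcb and 74 at Zfp770. Farp2 holds 4 GC boxes and Pdzd8 holds 2, while both Pdzd8 and Mcm5 hold the palindrome TGACGTCA. Their composition is unequal, with 47 CpG dinucleotides and 80% G and C at Pdzd8 against 5 and 51.6% at Pmpcb.

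The lists behind these loci were of unequal length. They held 10119 and 9728 GR peaks at 0 h and 14748 and 10588 at 6 h, beside 37460 H3K27ac peaks, and the weakest GR peak had a −log10 p of 9.0 to 9.1 in each. The sources used here give no read depth, so absence from a list means only that no peak passed the authors' limit in that library. The first 6 h library, the longest list, bears most on the number of 0 h-only end loci. Without it 1659 loci met the rule. Leaving out the second 6 h library gave 269, and leaving out the first or the second 0 h library gave 500 or 653. With each list cut to the 9724 strongest peaks the number was 719, among them 235 of the 245. As a check of the labelled cell type, 6 of 8 granulosa marker genes had an H3K27ac peak within 1 kb of an end, against 1 of 5 theca, 1 of 8 oocyte, 3 of 8 leukocyte and 1 of 7 endothelial markers and 48.5% of all protein-coding genes. The part of other cells in the loci was not tested.

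The 0 h-only end loci were mostly modest peaks. The authors' fold enrichment, the ratio of ChIP signal to the background their peak caller estimated, ran from 2.90 through a median of 6.39 to 12.7 in the first 0 h library and from 3.51 through 6.69 to 13.0 in the second. Loci called in all 4 lists near gene ends (3840, called shared end loci below) had medians of 8.83 and 8.88 in the same libraries. Their medians were 9.73 and 6.71 in the first and second 6 h libraries. Where values of 0 h and 6 h stand side by side below, they come from different lists, and their differences were not tested. By −log10 p, 163 of the 245 (66.5%) were in the weaker 50% of both 0 h lists, 15 were in the stronger 50% of both, and none was in the strongest 10% of either. Among shared end loci, 2466 of 3840 (64.2%) were in the stronger 50% of both. Over the 245 loci, which are not independent replicates, the fold enrichments of the 2 libraries had a Pearson r of 0.51, and 137 were higher in the second library. Most of the values thus overlapped with the lower part of the range of shared loci, as the plot of fold enrichment at 0 h shows.

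**Figure D1:**
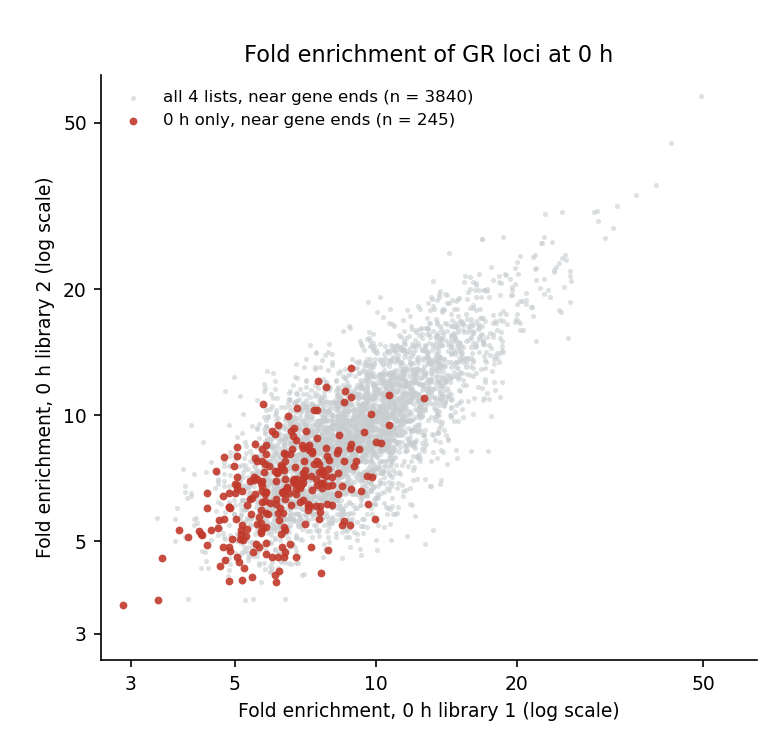
Fold enrichment given by the authors in the first 0 h library (x axis, log scale) and the second (y axis, log scale), 1 point per locus. The 245 red loci called only at 0 h lie between 2.90 and 13.0, most of them inside the lower part of the cloud of 3840 grey loci called in all 4 lists. The weakest, at H2ac7 and H2bc7 (2.90 and 3.51), is below the lowest grey values of 3.41 and 3.61.

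The 0 h-only end loci with the best mean rank in the 2 lists lay at genes of varied function. The first was at Pmpcb, a subunit of the protease that trims proteins imported into mitochondria, on chr5:21737054-21737439, with fold enrichments of 9.77 and 10.1. The locus holds the start of the gene, and 319 of its 386 bp were in H3K27ac. The second, at Pdzd8, a protein of contacts between the endoplasmic reticulum and other organelles, had 9.43 and 9.11. It lies 57 bp from a shared locus that holds the start of Pdzd8 itself and had 6.31 and 6.94 at 0 h and 7.08 and 7.07 at 6 h. The third, at the 3′ end of the apolipoprotein gene Apoa4, had 8.85 and 11.1.

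A pair of the leading loci belong to the activin system. At Acvr2a, which encodes a type II receptor for activin, the locus on chr2:48814110-48814542 began 1 bp behind the gene's first annotated base and had fold enrichments of 12.7 and 11.0, the highest of the 245 in the first library. The nearest other GR locus, called at 6 h, was 134463 bp away. At Fst, which encodes follistatin, the secreted protein that binds and blocks activin, a locus of 246 bp 42 bp from a gene end had 10.7 and 9.46. Here the next locus was 97 bp away and was called in all 4 lists, with 10.4 and 9.03 at 0 h and 8.37 and 8.31 at 6 h.

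The other leading loci included Tmem52 (fold enrichments of 10.3 and 8.56), Reep3, which shapes the endoplasmic reticulum (10.7 and 11.2), and the sialyltransferase gene St3gal4 (9.0 and 7.57). At the other end of Reep3, 129 bp from it, a locus called only at 6 h had 8.43 and 6.70. Loci at the zinc finger genes Zfp202 and Zfp770 held the gene starts, with 6.69 and 9.34 at the first and 8.59 and 11.5 at the second. Fmr1, an RNA-binding protein of translation, had 8.86 and 13.0, and its paralog Fxr1 had 8.56 and 10.7. A locus 128 bp from that of Fxr1 was called in the first 0 h library (6.16) and the first 6 h library (10.3). Chek1, the kinase that halts the cell cycle when replication stalls, had 9.81 and 7.12. Farp2, Smarcd1 (a subunit of the SWI/SNF remodelling complex), Rnf7, Hectd4, Clu, Polr2d (a subunit of RNA polymerase II) and Kcnh2 complete the 20 best ranked, with 6.50 to 11.7 in either library. Smarcd1 and Rnf7 each held a shared locus at the gene start. A locus 277 bp from that of Kcnh2 was called in the first 6 h library alone (4.97).

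Nearly all 0 h-only end loci lay in chromatin that carried H3K27ac at 0 h. Of the 245, 228 (93.1%, 95% Wilson interval 89.2 to 95.6) overlapped an H3K27ac peak, and in 207 (84.5%) the summit itself did. The share among loci called only at 6 h and near gene ends (258, called 6 h-only end loci) was 69.4%, a difference of 23.7 percentage points (17.1 to 30.1, Fisher's exact test, two-sided, adjusted p = 1.3e-11). It was 8.21, 11.9 and 13.9 points without the first 0 h, the second 0 h and the second 6 h library in turn. Shared end loci overlapped H3K27ac in 99.1%, so that the difference for 0 h-only end loci was −6.05 points (−9.95 to −3.47, Fisher's exact test, adjusted p = 4.0e-09). That difference became −9.12 points when the second 0 h library was left out and −2.42 when the first of 6 h was, and among the stronger 50% of each list it was −1.01 and did not pass the test. Against the 526 loci only at 0 h away from gene ends, 90.5% of which overlapped H3K27ac, the difference of 2.57 points (−1.91 to 6.37) did not pass (Fisher's exact test, adjusted p = 0.273). It passed at 7.85, 8.49 and 4.16 points without the first 0 h, the second 0 h and the first 6 h library in turn. These tests are over loci, which are not replicates, and describe the lists at hand. No H3K27ac library of 6 h was used here.

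**Figure D2:**
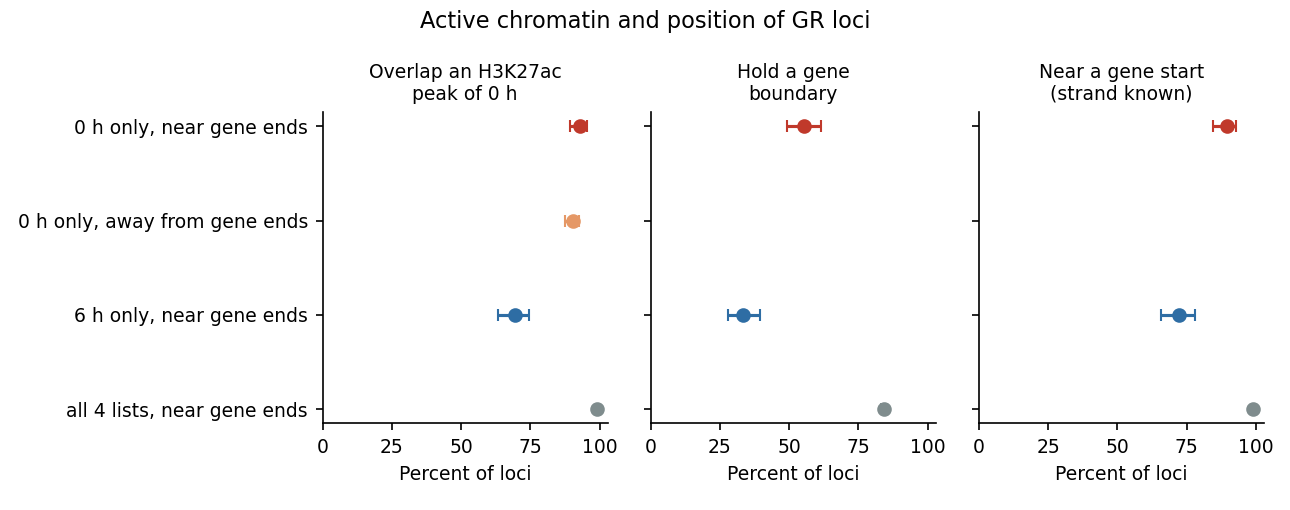
Percent of loci (x axes) that overlap an H3K27ac peak of 0 h, hold a gene boundary, or lie near a gene start among loci whose genes have a strand, for each class of loci (rows). Points are shares and bars are 95% Wilson intervals, and the 0 h-only end loci lie between 6 h-only and shared end loci in all 3 panels.

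The H3K27ac peaks under the 0 h-only end loci were narrower than those under the other classes of loci compared here. Their median width was 877 bp (quartiles 575 and 1566), against 637 bp over all H3K27ac peaks. It was 1435 bp under shared end loci, 1032 bp under 6 h-only end loci and 2548 bp under loci only at 0 h away from gene ends. The loci themselves had a median width of 362 bp, against 723 bp for shared end loci and 412.5 bp for 6 h-only end loci. At 28 of the 228 loci in H3K27ac, the same H3K27ac peak also held a GR peak of a 6 h library. The same count for loci only at 0 h away from gene ends is not given here, so whether it is high or low cannot be read.

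**Figure D3:**
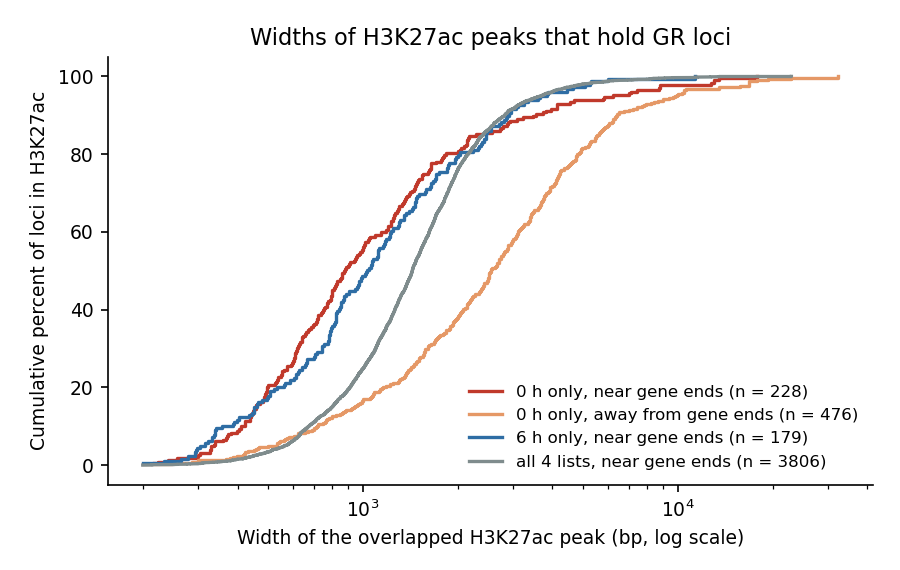
Cumulative percent of loci (y axis) by the width of the H3K27ac peak they overlap (x axis, bp, log scale), for the 4 classes of loci. The red line of 0 h-only end loci reaches its median at 877 bp, left of the grey line of shared end loci with 1435 bp.

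Outside H3K27ac lay 17 of the 245 loci, with median fold enrichments of 6.77 and 7.08, against 6.35 and 6.61 for those inside. The best ranked was at Hectd4, a ubiquitin ligase gene, with 7.83 and 11.7 and the nearest H3K27ac peak at 223 bp. Next came Ass1, an enzyme of arginine synthesis (7.003 and 7.076), and Trib2, a pseudokinase (9.22 and 8.31), whose nearest H3K27ac peaks were 5937 and 7463 bp away. Espn, an actin-bundling protein, had 8.08 and 7.11 at 24732 bp from H3K27ac. Stom, a membrane protein, had 5.58 and 7.05, and there the mark was 20 bp away.

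The position of the 0 h-only end loci differed from both other classes at gene ends. A gene boundary lay inside 136 of the 245 loci (55.5%), against 84.2% of shared end loci, a difference of −28.7 points (−35.1 to −22.5, Fisher's exact test, adjusted p = 1.5e-23). Shared loci were wider, and among loci 200 to 500 bp wide the difference was −19.8 points. When a summit within 250 bp of a boundary was counted in place of a boundary inside the locus, it was −7.3 points (−13.5 to −1.67). It was −12.9 in the stronger 50% of each list and −11.4 without the first 6 h library. Of 6 h-only end loci 33.3% held a boundary, which put the 0 h-only end loci 22.2 points higher (13.5 to 30.4, Fisher's exact test, adjusted p = 9.9e-07). With a 0 h library left out, which redefines both classes, it was −1.34 points (without the first) and 1.95 (without the second), and neither passed the test. Without the first 6 h library it was 50.5 points. The tests of boundary and of gene start are likewise over loci, which are not replicates, and describe the lists at hand.

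Gene starts, not 3′ ends, made up most of these boundaries. Strand was known for the genes of 199 of the 245 loci, and 178 of these (89.4%) lay within 1 kb of a gene start, with 21 near a 3′ end only. The share near a start was 98.8% for shared end loci, a difference of −9.33 points (−14.4 to −5.76, Fisher's exact test, adjusted p = 1.3e-11), and this was −6.19 without the second 0 h and −1.15 without the first 6 h library. It was 72.4% for 6 h-only end loci, a difference of 17.1 points (9.44 to 24.6, Fisher's exact test, adjusted p = 2.3e-05) that was 5.6 without the first 0 h and 28.6 without the first 6 h library. With the second 6 h library left out it was 3.05 and did not pass. Around the nearest annotated start, summits of 170 of the 245 loci were within 1 kb, 110 downstream and 60 upstream, and 143 were within 250 bp. As the plot of summit positions shows, the bases just behind the start held the most summits in each class.

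**Figure D4:**
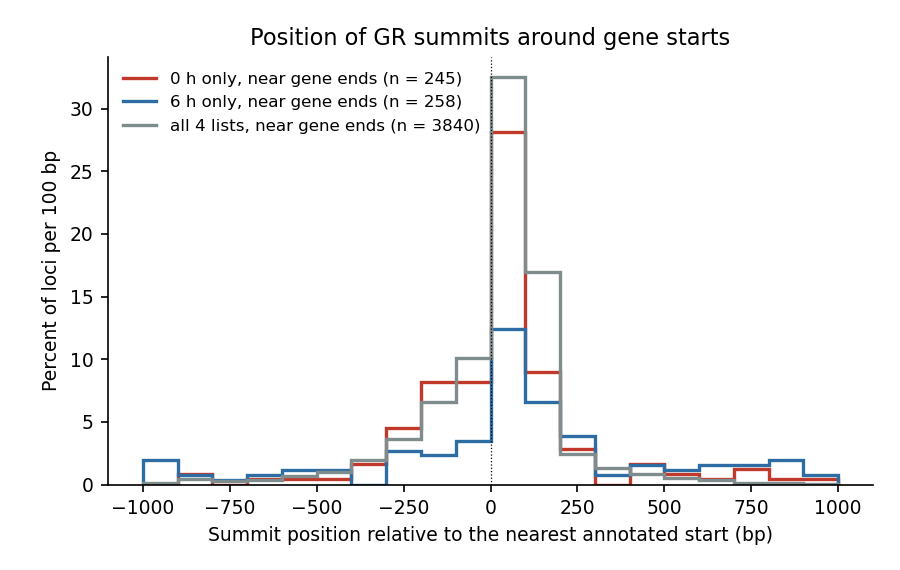
Percent of loci per 100 bp (y axis) by the position of the summit relative to the nearest annotated start (x axis, bp, positive values inside the gene), for 3 classes of loci near gene ends. The highest step of each line lies just right of the start, and 110 of the 170 summits of 0 h-only end loci within 1 kb are on that side.

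At 3′ ends only, the 21 loci included 4 of the 20 best ranked, at Apoa4, St3gal4, Smarcd1 (7.91 and 7.43) and Rnf7 (8.29 and 8.11). Other loci at 3′ ends were at Inha, Inhbb, Gja1 and Prkar2b, described with the gene lists. A single locus near the ends of 2 genes was found in 37 of the 245, and 20 lay within 1 kb of 2 gene starts. Together the 245 loci named 279 of 21631 protein-coding genes (1.29%). Of these genes, 175 had no other GR locus in the gene or 1 kb around it, 94 had a 6 h peak there, 43 had a shared locus and 18 had a 6 h-only locus. The same counts over all protein-coding genes are not given here, so whether these are high or low cannot be read from them.

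Another GR locus lay within 500 bp of 42 of the 245 (17.1%, Wilson interval 12.9 to 22.4). The share was 14.6% of shared end loci, 29.5% of 6 h-only end loci and 9.7% of loci only at 0 h away from gene ends. These 42 are described next. The neighbour had been called in all 4 lists at 17 of the 42, in other sets of lists with at least 1 of 6 h at 17, in other sets of 0 h alone at 6, and only at 0 h at 2. At none of them was it called only at 6 h. Of all 8736 GR loci near gene ends, 3840 were shared and 258 were 6 h-only, so a count of 0 in 42 says little. A 6 h peak was within 500 bp of 33 of the 245 loci, within 1 kb of 38, within 10 kb of 72 and within 50 kb of 161, with a median distance of 22910 bp. The median was 23660 bp for loci only at 0 h away from gene ends, so this distance was close to theirs. For the 33 with a 6 h peak within 500 bp, loss of a separate peak and a changed outline of a peak that persists cannot be told apart. Where the neighbour was shared, it had the higher fold enrichment in both 0 h libraries at 11 of 17.

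The neighbouring pairs differed in which member was stronger. At Bmpr2, a type II receptor of bone morphogenetic proteins, the 0 h-only locus had 5.53 and 7.92 and stood 288 bp from a shared locus with 13.7 and 19.8 at 0 h and 19.9 and 13.3 at 6 h. Further inside Bmpr2, 31277 bp from a gene end, a locus called only at 6 h had 7.73 and 9.18. At Atf2, a transcription factor of the cyclic AMP element family, the 0 h-only locus had 5.44 and 6.35 beside a shared locus with 13.5 and 16.5 at 0 h. Zfp629 had the reverse order, with 10.04 and 8.624 at the 0 h-only locus and 5.32 and 5.67 at the shared one. Atf2 and Zfp629 were chosen after their values were seen.

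Genes of the FSH response of the preovulatory follicle carried several of these loci. Of 28 such genes 6 (21.4%) had a 0 h-only end locus, where 1.29% of all protein-coding genes did, and 7 (25%) had a shared end locus and 2 a 6 h-only end locus. Of all 21631 protein-coding genes, 4488 (20.7%) had a shared end locus and 286 a 6 h-only one. The list was written with earlier results of these data known, so its count is a description. Of its genes 82.1% had an H3K27ac peak within 1 kb of an end, against 48.5% of all protein-coding genes. The share of 1.29% is thus not a like background for genes that carry the mark. At Inhbb, the βB subunit of inhibin and activin, 2 loci met the rule. The locus on chr1:119421988-119422612 held the gene start and had 6.68 and 8.90, and the locus on chr1:119414373-119415044, beyond the 3′ end, had 7.25 and 6.07. No GR peak of either 6 h library lay in Inhbb or 1 kb around it.

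At Inha, the common α subunit of the inhibins, the 0 h-only locus was 996 bp beyond the 3′ end and had 5.75 and 10.6, values that differ widely between the 2 libraries. Inside the gene, 641 bp from that end, a locus was called in the first 6 h library alone (6.41). The start of Inha held a shared locus with 10.1 and 17.7 at 0 h and 4.59 and 5.79 at 6 h. These values come from different lists, and their difference was not tested. Hsd17b1, the enzyme that makes estradiol from estrone, had 5.31 and 6.11 at a locus 935 bp from a gene end, inside the gene. A shared locus 969 bp beyond that gene end had 7.52 and 10.4 at 0 h and 7.49 and 7.87 at 6 h. Fst was described above.

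At Gja1, the gap junction protein connexin 43, the locus was 1306 bp wide, the widest of the 245, lay 898 bp inside the 3′ end and had 5.83 and 6.55. The gene held 2 further loci called only at 0 h, with 6.91 and 6.79 and with 6.16 and 5.59, which were over 1 kb from its ends. Its start held a shared locus with 9.76 and 9.53 at 0 h and 6.54 and 5.55 at 6 h. Prkar2b, a regulatory subunit of protein kinase A, had 6.77 and 6.67 at a locus 745 bp inside the 3′ end and outside H3K27ac. There too 3 further loci called only at 0 h lay inside the gene, over 1 kb from its ends. A shared locus 45 bp inside the start of Prkar2b had 10.5 and 8.73 at 0 h and 9.09 and 7.21 at 6 h. The gene also held a locus called only at 6 h, with 3.99 and 5.57.

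**Figure D5:**
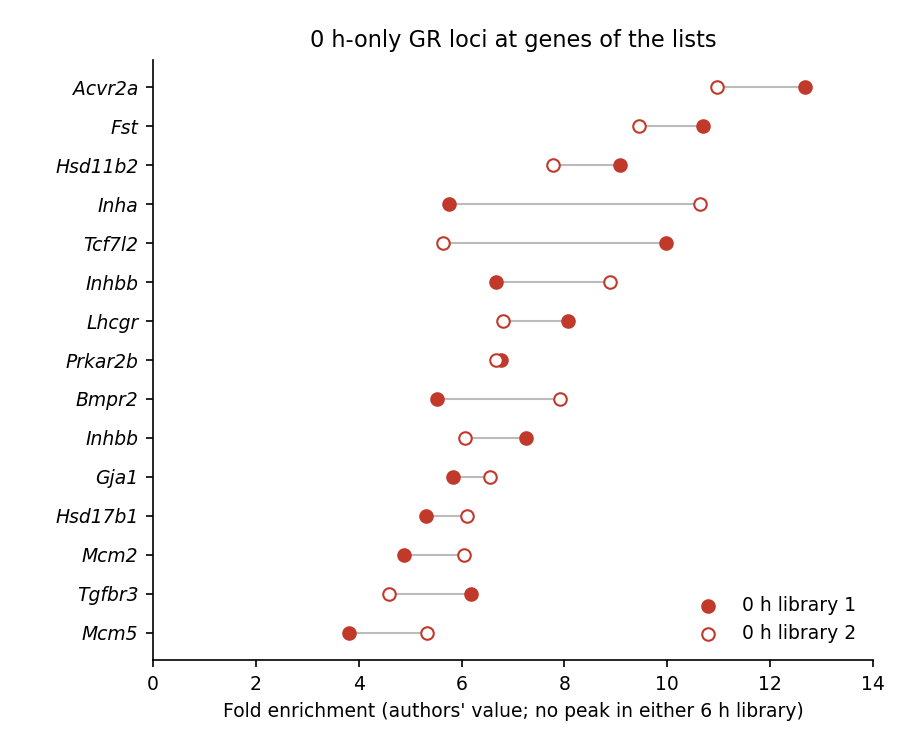
Fold enrichment given by the authors (x axis) in the first (filled) and second (open) 0 h library at each 0 h-only end locus of a gene on the lists (rows, Inhbb with 2 loci). By the mean of both libraries Acvr2a is highest (12.7 and 11.0) and Mcm5 lowest (3.81 and 5.33), and none of these loci has a value at 6 h.

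Genes of activin, BMP and TGF-β signalling had 0 h-only end loci at 3 of 28 (10.7%), all of them receptors or co-receptors, while 16 had a shared end locus and none a 6 h-only one. Of this list too 82.1% had an H3K27ac peak within 1 kb of an end. Besides Acvr2a and Bmpr2 this was Tgfbr3, the co-receptor betaglycan that also binds inhibin, with 6.19 and 4.58 at a locus that held a gene end. Inside Tgfbr3 lay a shared locus with 5.99 and 12.2 at 0 h and 12.9 and 12.1 at 6 h. A locus called only at 6 h had 8.47 and 9.45 there, and another called only at 0 h had 6.42 and 9.24. Of the list of luteinisation and steroid synthesis 1 of 26 genes had a 0 h-only end locus. This was Lhcgr, the receptor of luteinising hormone and of hCG. Its locus on chr17:88791761-88792004 stood 55 bp from the gene's annotated boundary, with 8.08 and 6.80. Further inside Lhcgr, 34975 bp from a gene end, a locus called only at 6 h had 12.3 and 9.74. Among 18 genes of GR, its enzymes and coregulators, Hsd11b2, which inactivates corticosterone, had a 0 h-only end locus with 9.08 and 7.79, and this gene had no other GR locus within 1 kb.

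Replication and signalling genes had a few more. Of 24 cell cycle genes, Mcm2 (4.88 and 6.04) and Mcm5 (3.81 and 5.33), subunits of the helicase that opens replication origins, had a locus at the gene start, and 7 of the 24 had a shared end locus. Of 26 genes of Wnt, Hippo and Notch signalling, Tcf7l2, a transcription factor of the Wnt pathway, had one that held its start, with 9.98 and 5.64. A locus 2245 bp inside the start of Tcf7l2 was called in the first 6 h library alone (5.76). No gene of the lists of the glucocorticoid response (24), the ovulatory response (24), the clock (17), cyclic AMP and kinase signalling (26) or early transcription factors (18) had a 0 h-only end locus, though 14, 8, 5, 14 and 11 of them had a shared one, as had 20.7% of all genes. At a background of 1.29%, a count of 0 in lists of this length says little. Markers of theca cells, oocytes, leukocytes and endothelial cells also had none, and nor had 15 housekeeping genes, 12 of which had a shared end locus.

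Genes with 2 of the loci were Inhbb, Hes7 and Marchf10. At Hes7, a transcription factor of the Notch pathway, the loci stood 455 bp apart, with 6.77 and 8.75 at the first and 5.22 and 5.04 at the second, and they are the pair counted above as neighbours only at 0 h. At Marchf10, a ubiquitin ligase gene, the fold enrichments were 7.46 and 6.07 and, 744 bp away, 4.36 and 4.90. At the weak end of the range, loci at Chst12 (3.43 and 3.61), Acp6 (5.19 and 4.04), the histone genes H2ac7 and H2bc7 (2.90 and 3.51), Acadvl (4.21 and 5.29) and Mrps17 (7.65 and 4.20) had the lowest −log10 p in either library, from 9.08 to 10.2. In all, 26 of the 245 were under 12 in at least 1 library, close to the authors' limit.

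On both sides of the 1 kb limit lay loci with overlapping values. Just inside it were F3, the tissue factor of coagulation, at 997 bp (4.36 and 5.99), Inha at 996 bp and Sdhb, a subunit of mitochondrial complex II, at 979 bp (5.80 and 6.48). Just outside were St3gal5 at 1018 bp (5.95 and 5.82), Macrod1 at 1020 bp (5.01 and 5.65) and Ddit4l at 1027 bp (5.16 and 7.12). Within 500 bp of a gene end the rule gave 212 loci, and within 2 kb 271.

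Motifs in the promoters were counted in windows of 300 bases, 250 before and 50 after each annotated start, for 21045 promoters of 17274 genes. Of the 245 loci 150 overlapped such a window, and they overlapped 177 promoters. The palindromic GR response element, AGAACA and TGTTCT with 3 bases of any kind between them, was in none of the 177 (up to 2.12% by the Wilson interval), and in 2 of all 21045. The hexamer AGAACA, on either strand, was in 23 of 177 (13.0%, 8.82 to 18.7), against 16.3% of all promoters, 10.9% of promoters in H3K27ac and 9.94% of promoters in shared end loci. It is part of the palindrome, so these counts overlap. AGGTCA was in 11.3%, 14.6%, 11.2% and 9.91% of the same sets.

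Other motifs were more or less common in these promoters than in all promoters. The ETS motif CCGGAAG was in 50 of 177 promoters at 0 h-only end loci (28.2%, 22.1 to 35.3), against 11.7% of all promoters, 21.6% of those in H3K27ac, 23.8% of those in shared end loci and 15.2% of 99 in 6 h-only end loci. The GC box GGGCGG was in 65.5%, against 46.7%, 68.4%, 72.9% and 65.7% of these sets. TGACG was in 30.5%, against 23.8%, 35.3%, 40.7% and 29.3%, and CCAAT in 44.6%, against 38.5%, 38.6%, 39.9% and 36.4%. The palindrome TGACGTCA, which holds TGACG, was in 7 of 177 (3.95%, 1.93 to 7.94), against 2.26%, 3.75%, 4.81% and 2.02%. The AP-1 motif TGANTCA was in 5 of 177 (2.82%, 1.21 to 6.44), against 7.04% of all promoters, 3.98% of those in H3K27ac, 3.83% of those in shared end loci and 11 of the 99 in 6 h-only end loci (11.1%, 6.32 to 18.8). The median GC content of the 177 promoters was 60.7%, against 56.7% of all and 63.3% of those in shared end loci. Several of these promoters belong to 1 gene, and no test was made.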

How the data were processed

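The processed files are peak lists of 4 GR ChIP-seq libraries and 1 H3K27ac library, 1 list per library. Per the submitters' processing notes, the authors used Bowtie2 2.4.5, MACS2 and the build mm10; the sources used here give no version of MACS2. In each deposited GR list a peak has the authors' score (10 times the −log10 p, as a whole number), a fold enrichment and a −log10 p-value. These are the authors' values, each used only to describe or rank peaks within 1 list. The deposited H3K27ac list gives positions. Read depth is unknown, so list length limits the precision, and intervals cover counting error only.

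Loci, gene distances and shares were computed with Python 3.11.15, pandas 2.3.3, numpy 2.4.6 and scipy 1.17.1, tested on simulated lists. Gene ends came from a RefSeq table of GRCm38.p6 with 21631 protein-coding genes on these chromosomes, and strand from its promoter table for 17274 (79.9%). Of 279 genes with a locus, 227 had a promoter there. Gene lists held 302 distinct genes, of which 301 were matched. Shares have 95% Wilson intervals and differences Newcombe intervals, with Fisher's exact test adjusted by Benjamini-Hochberg over 7 tests at 0.05. Members, lists and tests were chosen with earlier results of these data known. The share near a gene start was at first taken over all loci of a class, and the change to loci with strand known was made after those values had been seen. Named genes are the 20 loci of best mean rank, list genes with a locus, the 3 loci on either side of 1 kb, the 5 best ranked outside H3K27ac, genes with 2 loci and the 5 weakest loci. Alternatives left out each library, or changed threshold, list length, merging, window and overlap. The GR libraries labelled PRWT and PRKO and the pooled inputs were not analysed here.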

Additional observations from a re-analysis of the deposited data

How the results depend on the processing

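No paired analysis was possible because the results are shares of loci chosen by presence in the libraries, which leave no values per library to block on. The number of 0 h-only end loci ran from 269 to 1659 with 1 library left out, and dropping a library loosens the rule by construction; it was 719 at equal list length. The share in H3K27ac was 89.9 to 96.6% with 1 library left out, 98.3% in the stronger 50% of each list, 96.0% at equal list length, 85.7% with at least 50% of the locus covered and 84.5% by the summit. The share with a neighbour within 500 bp was 13.0 to 23.0% with 1 library left out, 7.79% in the stronger 50%, 11.5% at equal list length and, by construction, 0% with merging across 500 bp.

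The difference in H3K27ac share from 6 h-only end loci kept its direction and passed under all 13 alternatives run, at 8.21 to 30.6 points with 1 library left out. That from shared end loci passed under 12 of 13 and was −1.01 points in the stronger 50%. That from loci away from gene ends was 3.81 to 8.49 points with 1 library left out, 4.99 in the stronger 50% and 4.93 at equal list length, where it passed. The boundary difference from shared end loci passed under all 12 run. The boundary difference from 6 h-only end loci was −1.34 to 50.5 points with 1 library left out, reversing without the first 0 h library. The gene start difference from 6 h-only end loci was 3.05 to 28.6 points with 1 library left out, and both gene start differences passed over all loci, at −9.61 and 16.8 points. Other alternatives that passed but moved a difference by over 1.5 times were the stronger 50% (12.6 points in H3K27ac from 6 h-only end loci, −12.9 for the boundary and −3.27 for the start, both from shared end loci) and equal list length (from shared end loci −3.21, −18.6 and −3.46 in H3K27ac, boundary and start, and from 6 h-only end loci 36.2 and 28.2 for boundary and start). In H3K27ac from shared end loci, 50% coverage gave −11.8, the summit −11.3 and loci 200 to 500 bp wide −3.94. The boundary by the summit gave −7.3 and the start within 500 bp −4.34, both from shared end loci. The alternatives on width, neighbours and summit and that on the gene start share were added after seeing the data. The cause of these changes was not tested. Only 15 of the 245 loci were found again among the 231 loci of the stronger 50% of each list, against 235 at equal list length. That number was fixed in advance, since 15 of the 245 were in the stronger 50% of both 0 h lists. Shares and differences in the stronger 50% thus describe a mostly different set of loci and cannot check the 245.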

Other observations

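Values at some further genes of DNA replication and cell division with a 0 h-only end locus are given here. They were picked by hand after their values were seen, with no list behind them, so they show no theme. The list of cell cycle genes described above had 2 of 24. Mcm3, another subunit of the replicative helicase, had fold enrichments of 6.58 and 8.06 at a locus that held its start. Rfc3, which loads the replication clamp, had 6.20 and 5.83. Of the kinetochore, Cenpe had 7.04 and 7.78, Ndc80 had 7.07 and 7.40, and the spindle checkpoint gene Mad2l1 had 6.73 and 7.50 beside a locus called in other lists. The mitotic kinase Aurka had 5.06 and 4.60, the phosphatase Cdc25c 7.18 and 5.94, the cohesin regulator Cdca5 5.47 and 4.70, and the DNA repair gene Fancd2 5.80 and 7.65. Aurka, Cdca5, Ndc80 and Fancd2 share their locus with a second gene. All of these loci overlapped H3K27ac.

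Some mitochondrial genes were picked in the same way and likewise show no theme. They were Ndufs5 (7.49 and 10.3) and Ndufa8 (6.11 and 7.37) of complex I, Cox7b (7.38 and 7.65) of complex IV, Suclg2 (7.14 and 8.38) of the citric acid cycle and Mrps2 (7.19 and 6.14) of the mitochondrial ribosome. Ndufa8 shares its locus with Morn5, and Mrps2 shares its locus with 1700007K13Rik.

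Chromosome X held 13 of the 245 loci (5.31%), among them Fmr1, Suv39h1 (a histone methyltransferase, 7.38 and 10.3) and Atp7a (a copper transporter, 4.58 and 7.37). It held 1.38% of shared end loci, 2.71% of 6 h-only end loci, 2.28% of loci only at 0 h away from gene ends and 4.47% of protein-coding genes. Of the 194 GR loci near gene ends on X, 68.6% and 62.9% were called in the 0 h libraries, and 76.8% and 37.1% in the 6 h libraries. On autosomes these were 76.7%, 70.7%, 88.3% and 53.2% of 8542. The pattern was noticed in these data and was not tested.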
